A study of Mus musculus with 9 samples.

Results

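The small leucine-rich proteoglycans examined here are 10 genes, Lum, Dcn, Fmod, Aspn, Prelp, Ogn, Bgn, Omd, Kera and Podn, among 18193 genes that the platform's gene table names alone on at least 1 probe set. They were chosen by symbol, with earlier results of these data known, and cover 21 probe sets. Expression was measured in 3T3-L1 cells, a mouse preadipocyte line that becomes fat cells in culture, on 9 arrays in 3 groups of 3: shEbf1 Hairpin 1, shEbf1 Hairpin 2 and Scrambled. Lentivirus delivered a different short hairpin against Ebf1, the gene of a transcription factor, in each of the first 2 groups, and a scrambled hairpin in the last. All groups were infected as mature cells 3 to 4 times over and kept in puromycin at 5 µg/ml for at least 8 days, so the controls share the virus and the drug. Each comparison with the scrambled hairpin asks which genes differ when a hairpin targets Ebf1 in fat cells. The comparison between the hairpins asks where they differ from each other. Effects of a hairpin on other targets were not tested. The cells are 1 line, and the labels number repeats without naming separate cultures. P-values here thus rest on array-to-array spread that may be technical.

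Small leucine-rich proteoglycans are secreted proteins with a curved core of leucine-rich repeats, and many carry sulfated sugar chains. They bind collagen fibrils and set their spacing and width, and several also hold growth factors of the TGF-beta and BMP families in the matrix. Their classes follow sequence and gene structure: decorin (Dcn), biglycan (Bgn) and asporin (Aspn) form class I. Lumican (Lum), fibromodulin (Fmod), keratocan (Kera), osteoadherin (Omd) and prolargin (Prelp) form class II, osteoglycin (Ogn, also called mimecan) belongs to class III and podocan (Podn) to a more distant class. Several lie side by side in the genome, and in adipose tissue they are made chiefly by fibroblasts and progenitor cells.

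The sequences below are the 250 bases before the annotated start of 4 members, from RefSeq, build GRCm38.p6, written 5′ to 3′. They are shown because Aspn, Omd and Ogn are direct neighbours that behaved differently, and Fmod differed most between the hairpins. Capitals mark TATAAA on either strand, and lower case is all else.
Fmod (chr1:134037004-134037253, + strand): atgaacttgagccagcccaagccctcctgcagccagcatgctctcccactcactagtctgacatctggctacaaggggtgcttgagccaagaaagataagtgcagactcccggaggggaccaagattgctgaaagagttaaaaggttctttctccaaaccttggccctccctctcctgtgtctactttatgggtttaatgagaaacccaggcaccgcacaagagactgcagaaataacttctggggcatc
Aspn (chr13:49544193-49544442, + strand): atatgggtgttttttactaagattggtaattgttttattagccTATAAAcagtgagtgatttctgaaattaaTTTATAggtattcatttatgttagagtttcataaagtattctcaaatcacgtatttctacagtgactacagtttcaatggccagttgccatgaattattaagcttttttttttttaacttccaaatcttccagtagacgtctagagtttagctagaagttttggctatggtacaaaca
Omd (chr13:49582212-49582461, + strand): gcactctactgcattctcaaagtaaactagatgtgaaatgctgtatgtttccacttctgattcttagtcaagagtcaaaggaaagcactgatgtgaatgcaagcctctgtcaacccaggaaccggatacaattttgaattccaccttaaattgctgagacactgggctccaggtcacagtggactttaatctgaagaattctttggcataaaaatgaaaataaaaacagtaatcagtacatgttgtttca
Ogn (chr13:49607765-49608014, + strand): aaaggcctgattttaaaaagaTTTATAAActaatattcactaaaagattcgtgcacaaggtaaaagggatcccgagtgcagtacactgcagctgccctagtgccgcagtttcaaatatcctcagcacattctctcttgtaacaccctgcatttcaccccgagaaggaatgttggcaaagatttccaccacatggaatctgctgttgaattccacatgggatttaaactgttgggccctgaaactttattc
Aspn and Ogn each hold 2 matches to TATAAA, which in Ogn overlap each other on opposite strands, and Fmod and Omd hold none. The core of the EBF motif, CCCNNGGG, was searched on both strands of the same window in the 8 members with a promoter entry, and 0 of these 8 held it. TATAAA was held by 2 of these 8. Over all 32851 promoter entries, 11.8% held CCCNNGGG and 12.4% held TATAAA. A missing match says only that these letters are not in this window. Lum and Dcn had no entry and are named only.

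The arrays had medians of 6.31 to 6.38 log2 units and correlated at 0.994 to 0.998 inside a group, against 0.974 to 0.989 across groups (Pearson's r across genes, as a description). No 2 arrays were identical, and their number limits the precision. The target gene Ebf1 read 9.32, 9.54 and 9.45 with hairpin 1, 8.90, 8.72 and 9.20 with hairpin 2, and 10.12, 10.15 and 10.31 with the scrambled hairpin, so the groups did not overlap. It fell by 0.75 log2 units with hairpin 1 (limma adjusted p = 0.000102) and fell by 1.25 with hairpin 2 (adjusted p = 2.98e-07). Other Ebf1 probe sets gave -0.46, -1.10 and -1.03 with hairpin 1 (over all probe sets, adjusted p = 0.0501, 1.93e-05 and 0.000542). With hairpin 2 they gave -1.07, -1.62 and -1.30 (adjusted p = 9.72e-05, 1.72e-07 and 4.03e-05). A further one, at 5.26 with the scrambled hairpin, passed with neither (adjusted p = 0.59 and 0.627). The fat cell markers Adipoq and Fabp4 averaged 14.80 and 14.85 with hairpin 1, 14.81 and 14.93 with hairpin 2, and 14.82 and 14.89 with the scrambled hairpin. Both lie near the top of the range of the arrays, and whether signal there still follows RNA was not tested.

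Of the 10 genes, 9 passed the filter on low signal, a mean of at least 5.72 on the log2 scale, and were tested with limma among 12735 genes. A call below is an adjusted p under 0.05. With hairpin 1, 7 members were called, 6 higher and 1 lower, beside 33.0% of all genes tested (23.7% higher and 9.23% lower). With hairpin 2, 7 were called, 4 higher and 3 lower, beside 34.8% of all genes (21.5% and 13.3%). The median log2 fold change of the 9 was 0.31 with hairpin 1, against 0.067 over all genes tested, and 0.091 with hairpin 2, against 0.024. Lum, Dcn, Fmod and Aspn rose with both hairpins and Prelp fell with both on the probe set used. Omd rose with hairpin 1 and fell with hairpin 2, Bgn rose with hairpin 1, Ogn fell with hairpin 2, and Podn passed with neither. Both comparisons use the same scrambled arrays. As the members were chosen with earlier results of these data known, the counts beside all genes are a description. These are bulk cultures, in which more cells of a type and more RNA per cell cannot be told apart.

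**Figure D1:**
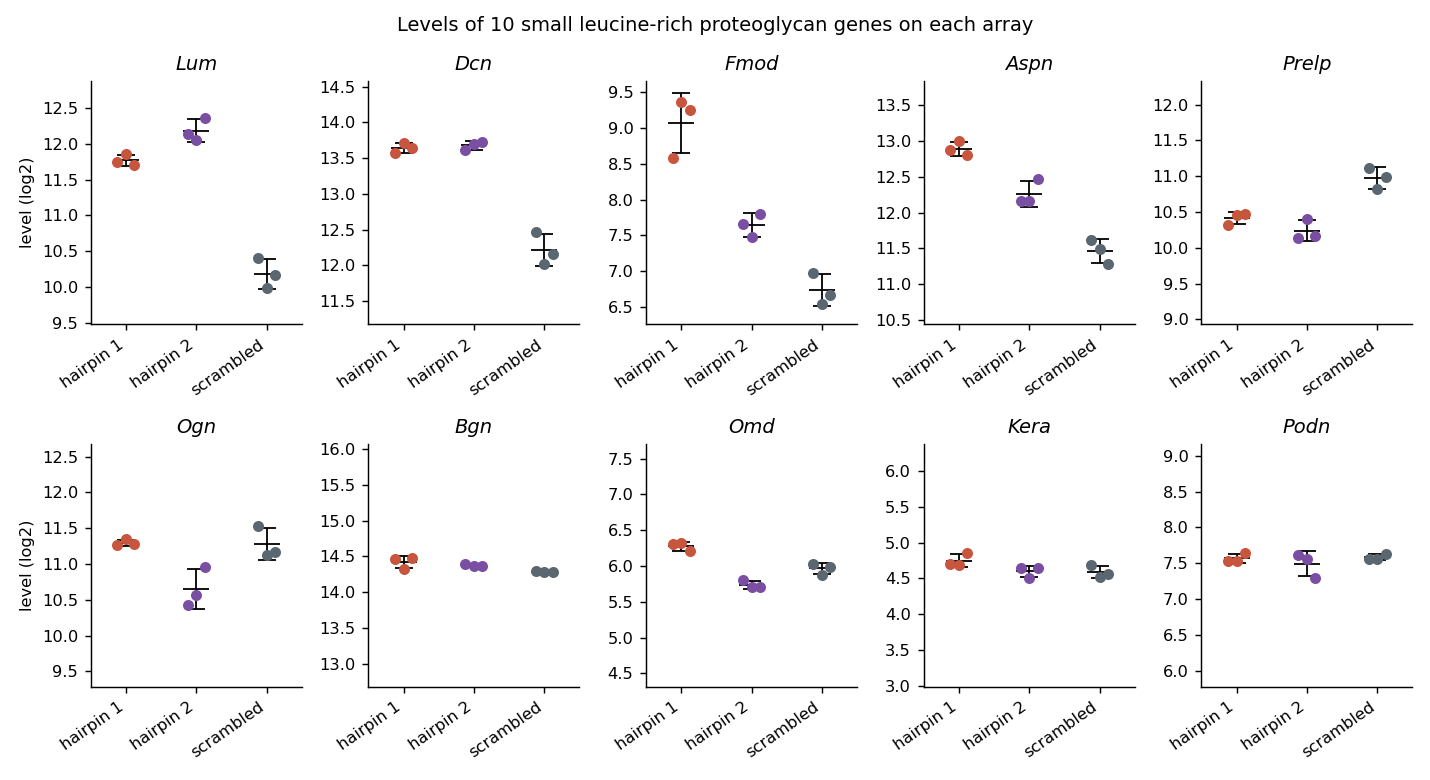
Level of each of the 10 genes (log2, y axis) on the 3 arrays of hairpin 1, hairpin 2 and scrambled; dots are arrays, bars the mean ± SD (n = 3), and every panel spans the same number of log2 units. Lum, Dcn, Fmod, Aspn and, by little, Bgn lie above the scrambled arrays with both hairpins, and Prelp lies below them with both on the probe set used. Omd lies above them with hairpin 1 and below them with hairpin 2. Ogn lies below them with hairpin 2 only, and Kera stays under the filter of 5.72.

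Among the class I genes, Dcn rose with both hairpins. Decorin carries 1 dermatan or chondroitin sulfate chain, binds type I collagen and holds TGF-beta. Dcn read 13.57, 13.71 and 13.64 with hairpin 1, 13.61, 13.70 and 13.73 with hairpin 2, and 12.46, 12.03 and 12.16 with the scrambled hairpin. All arrays of both hairpins lay above every scrambled array, and those of the hairpins overlapped each other. The rise was 2.68-fold with hairpin 1 (1.42 log2 units, SE 0.0814; limma adjusted p = 3.09e-09) and 2.75-fold with hairpin 2 (1.46, adjusted p = 9.01e-10). Hairpin 2 minus hairpin 1 was 0.039 log2 units (SE 0.0814, adjusted p = 0.773). A further Dcn probe set with a far lower signal, 6.10 on the scrambled arrays, rose by 0.83 and 0.96 log2 units with hairpins 1 and 2 (over all probe sets, adjusted p = 8.09e-05 and 1.09e-05).

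Aspn also rose with both hairpins, and further with hairpin 1. Asporin binds collagen and TGF-beta and carries a run of aspartates in place of the sugar chains. It read 12.88, 13.00 and 12.80 with hairpin 1, 12.16, 12.16 and 12.47 with hairpin 2, and 11.62, 11.49 and 11.28 with the scrambled hairpin. None of the 3 groups overlapped. The rise was 2.69-fold with hairpin 1 (log2 fold change 1.43, adjusted p = 1.44e-08) and 1.74-fold with hairpin 2 (0.80, adjusted p = 4.78e-06), and hairpin 2 lay below hairpin 1 by -0.63 log2 units (SE 0.0925, adjusted p = 9.6e-05). Its other probe set rose by 0.98 and 0.70 log2 units (adjusted p = 0.000255 and 0.00264), but did not separate the hairpins (-0.28, adjusted p = 0.254 over all probe sets).

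Bgn changed little. Biglycan is the close relative of decorin with a pair of sugar chains, and it also activates Toll-like receptors when set free from the matrix. It read 14.46, 14.33 and 14.47 with hairpin 1, 14.40, 14.37 and 14.37 with hairpin 2, and 14.30, 14.29 and 14.28 with the scrambled hairpin. Every array with a hairpin lay above every scrambled array. The difference was 0.13 log2 units with hairpin 1 (SE 0.0368, adjusted p = 0.0110), and the hairpin 2 value of 0.091 missed the threshold (adjusted p = 0.0675). The hairpin 1 call was lost with equal array medians (adjusted p = 0.0923) and without repeat 3 of hairpin 1 (0.0618), and hairpin 2 passed without repeat 2 of hairpin 1 (0.0157). On its other probe sets Bgn rose by 0.21 and 0.17 with hairpin 1 (over all probe sets, adjusted p = 0.000573 and 0.00704).

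In class II, Lum rose with both hairpins and further with hairpin 2. Lumican carries keratan sulfate in the cornea, and mice without it have fragile skin and a cloudy cornea. Its levels were 11.75, 11.86 and 11.70 with hairpin 1, 12.14, 12.05 and 12.37 with hairpin 2, and 10.40, 9.99 and 10.16 with the scrambled hairpin. The groups did not overlap, and hairpin 2 was highest and scrambled lowest. Lum rose 3.00-fold with hairpin 1 (log2 fold change 1.58, SE 0.101, adjusted p = 1.12e-08) and 4.00-fold with hairpin 2 (2.00, adjusted p = 2.48e-10). Hairpin 2 exceeded hairpin 1 by 0.42 log2 units (adjusted p = 0.00545), and Lum was the 1 member with a called difference in that direction, beside 11.6% of all genes tested.

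Fmod showed the reverse order and, on the probe set used, the largest rise in the family with hairpin 1. Fibromodulin competes with lumican for a site on type I collagen and also binds TGF-beta. Its level was 8.59, 9.37 and 9.25 with hairpin 1, 7.66, 7.47 and 7.80 with hairpin 2, and 6.98, 6.55 and 6.67 with the scrambled hairpin. The groups did not overlap, and the first repeat of hairpin 1 lay lowest of its group. The difference was 5.05-fold with hairpin 1 (log2 fold change 2.34, SE 0.168, adjusted p = 4.42e-08) and 1.88-fold with hairpin 2 (0.91, adjusted p = 0.000466). On that probe set, among 12735 genes, the hairpin 1 value ranked 2 from the top, and the hairpin 2 value ranked 322. Hairpin 2 minus hairpin 1 was -1.43 log2 units (adjusted p = 1.12e-05).

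Fmod has 6 probe sets, and all 6 rose with hairpin 1, by 0.90 to 2.34 log2 units. With hairpin 2, 2 of the 6 rose and the others did not pass (0.20 to 0.41 log2 units, adjusted p = 0.106 to 0.417 over all probe sets). All 6 lay lower with hairpin 2 than with hairpin 1, by -1.43 to -0.61 log2 units. The probe set used has the largest values of the 6 in both comparisons: with the mean of all probe sets the log2 fold changes were 1.29 with hairpin 1 (adjusted p = 1.6e-05) and 0.42 with hairpin 2 (adjusted p = 0.0318). On that mean the largest rise in the family with hairpin 1 was that of Lum (1.58). Of the 6, 5 carry the array maker's mark for probes that may match other sequences, and the probe set without that mark gave 1.34 and 0.40 (adjusted p = 1.15e-06 and 0.0191).

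Prelp had no settled direction with hairpin 1. Prolargin binds collagen and, through a basic stretch, heparan sulfate of basement membranes. On the probe set with the higher signal it read 10.32, 10.45 and 10.47 with hairpin 1, 10.14, 10.40 and 10.17 with hairpin 2, and 11.12, 10.82 and 10.99 with the scrambled hairpin. There it lay below every scrambled array and fell by 0.56 log2 units with hairpin 1 (SE 0.0947, adjusted p = 0.000301) and by 0.74 with hairpin 2 (adjusted p = 1.42e-05).

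The other Prelp probe set gave 10.06, 10.34 and 10.59 with hairpin 1, 9.52, 9.68 and 9.74 with hairpin 2, and 9.71, 9.68 and 9.83 with the scrambled hairpin. On it Prelp was higher by 0.59 log2 units for hairpin 1 (over all probe sets, adjusted p = 0.00265), and the hairpin 2 value was -0.087 (adjusted p = 0.728). The probe set that fell carries the maker's mark for probes shared by several transcripts. With the mean of both, Prelp differed by 0.017 with hairpin 1 (adjusted p = 0.917) and fell by 0.41 with hairpin 2 (adjusted p = 0.00323). Which transcripts each probe set reads was not tested.

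Omd lay near the filter and moved in opposite directions. Osteoadherin is known from bone, where it binds mineral and integrins. It read 6.30, 6.32 and 6.20 with hairpin 1, 5.80, 5.70 and 5.70 with hairpin 2, and 6.03, 5.88 and 5.99 with the scrambled hairpin, so the 3 groups were separate. Omd rose with hairpin 1 by 0.31 log2 units (SE 0.0826, adjusted p = 0.00916) and fell by 0.23 with hairpin 2 (adjusted p = 0.0409), and hairpin 2 minus hairpin 1 was -0.54 (adjusted p = 0.00014). The hairpin 1 call was lost without repeat 2 of scrambled (adjusted p = 0.0541). The hairpin 2 call was lost when scrambled repeat 1 (adjusted p = 0.151), scrambled repeat 3 (0.113), hairpin 2 repeat 2 (0.114) or hairpin 2 repeat 3 (0.0833) was left out, with the repeat number as a block (0.0592), and over all probe sets (0.0715).

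Kera, a keratan sulfate proteoglycan of the cornea, stayed under the filter. Its single probe set read 4.70, 4.69 and 4.85 with hairpin 1, 4.65, 4.51 and 4.64 with hairpin 2, and 4.69, 4.52 and 4.57 with the scrambled hairpin. With no filter it differed by 0.15 and 0.0078 log2 units with hairpins 1 and 2 (over all probe sets, adjusted p = 0.166 and 0.968).

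Ogn fell with hairpin 2. Osteoglycin is a matrix protein first found in bone that also occurs in vessels and cornea. It read 11.26, 11.35 and 11.27 with hairpin 1, 10.43, 10.56 and 10.96 with hairpin 2, and 11.53, 11.12 and 11.17 with the scrambled hairpin. The hairpin 2 arrays lay below all others, and hairpin 1 overlapped scrambled. Ogn fell by 0.63 log2 units with hairpin 2 (SE 0.123, adjusted p = 0.000768). Its hairpin 1 value was 0.017 (adjusted p = 0.933), and the direct difference between the hairpins was -0.65 (adjusted p = 0.000941). Its second probe set gave 0.30 with hairpin 1, which did not pass (adjusted p = 0.24), and -0.54 with hairpin 2 (adjusted p = 0.0257).

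Podn, whose product binds collagen and slows the growth of smooth muscle cells, did not pass in either comparison. It read 7.52, 7.53 and 7.64 with hairpin 1, 7.62, 7.56 and 7.30 with hairpin 2, and 7.56, 7.56 and 7.63 with the scrambled hairpin. The differences were -0.021 and -0.093 log2 units (SE 0.0961, adjusted p = 0.894 and 0.515), and all groups overlapped.

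**Figure D2:**
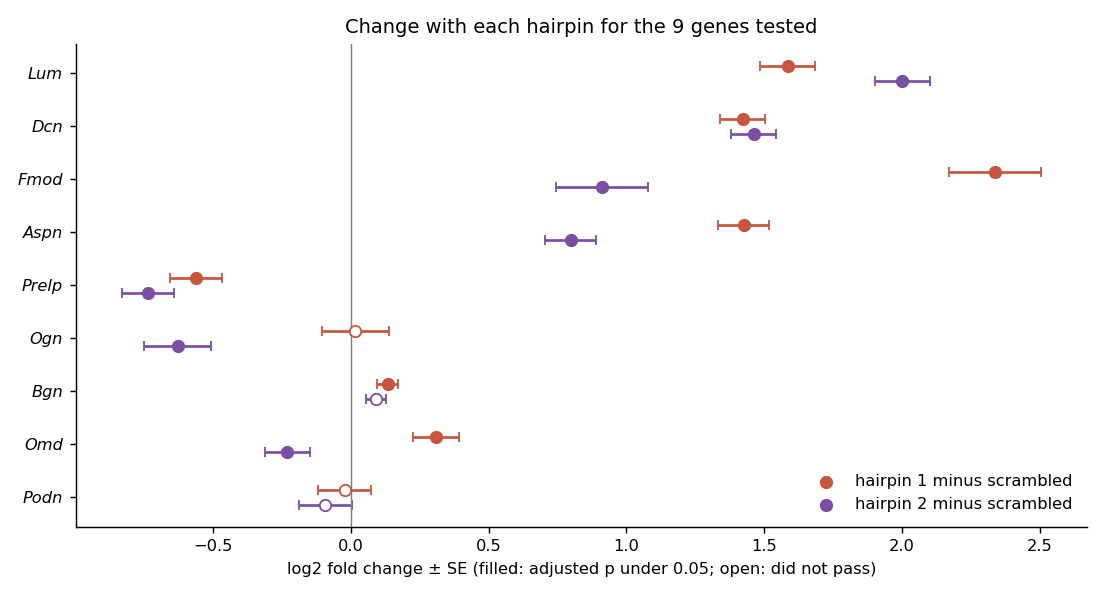
Log2 fold change ± SE (x axis) of the 9 genes tested, hairpin 1 minus scrambled above and hairpin 2 minus scrambled below in each row; filled points passed an adjusted p of 0.05. On the probe sets used, Fmod has the highest value with hairpin 1 (2.34) and Lum with hairpin 2 (2.00); with probe sets averaged, Lum is also highest with hairpin 1 (1.58).

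Tested directly, 5 members differed between the hairpins, 1 higher and 4 lower with hairpin 2, beside 29.1% of all genes tested (11.6% and 17.4%). The 4 lower were Fmod, Aspn, Ogn and Omd. The median of the 9 was -0.18 log2 units, against -0.035 over all genes. On the probe set used, Ebf1 itself was lower with hairpin 2 by -0.50 log2 units (adjusted p = 0.00351). Its other probe sets gave -0.61 and -0.52 (over all probe sets, adjusted p = 0.0124 and 0.00943). The remaining values of -0.27 and -0.19 did not pass (adjusted p = 0.341 and 0.25). Dcn, Prelp, Bgn and Podn did not pass (adjusted p = 0.187 to 0.773). When the probe sets of a gene were averaged, Prelp (-0.43, adjusted p = 0.00361) and Bgn (-0.10, adjusted p = 0.0269) passed in this comparison. Both also passed with array quality weights (adjusted p = 0.0146 and 0.0399), and Bgn without repeat 2 of hairpin 1 (0.0464). Those weights were 5.35 for repeat 3 of hairpin 1, against 0.256 and 0.436 for its repeats 1 and 2. The other Bgn probe sets were lower with hairpin 2 than with hairpin 1 by -0.14 and -0.12 log2 units (over all probe sets, adjusted p = 0.0116 and 0.0473).

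Over all 21 probe sets, fitted with no filter, 16 rose and 1 fell with hairpin 1, beside 10.4% and 4.64% of all 45037 probe sets. With hairpin 2, 7 rose and 3 fell, beside 10.3% and 7.17%. Between the hairpins 1 was higher and 13 were lower with hairpin 2, beside 4.91% and 7.73%. The 45037 include low signals that the gene test left out. Among genes over the filter, 23.7% were higher and 9.23% lower with hairpin 1, and 21.5% and 13.3% with hairpin 2. Probe sets of a gene are meant to read RNA of that gene and are not counted as independent, although those of Prelp disagreed with hairpin 1. Fmod alone gives 6 of the 21.

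**Figure D3:**
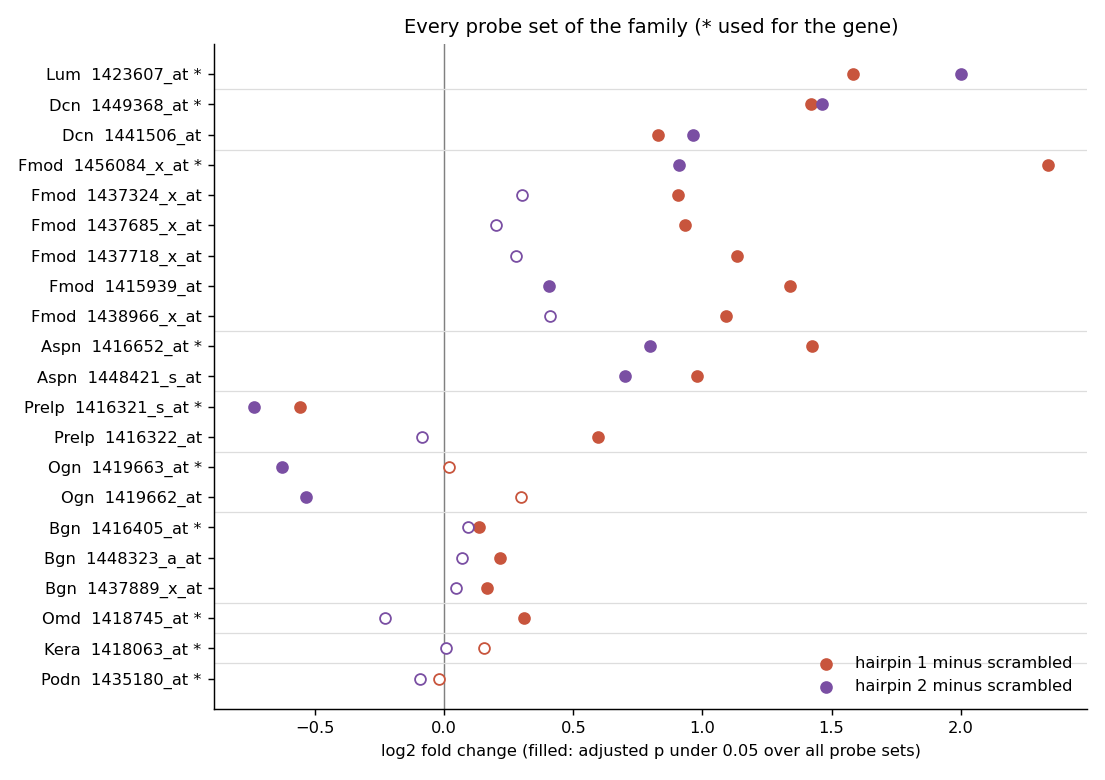
Log2 fold change (x axis) of each of the 21 probe sets with hairpin 1 and hairpin 2 against scrambled; filled points passed an adjusted p of 0.05 over all probe sets and a star marks the probe set used for the gene. The Prelp probe sets lie on opposite sides of 0 with hairpin 1, at -0.56 and 0.59, and all 6 Fmod probe sets lie further right with hairpin 1.

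Profiles were compared as the root mean square difference over the 9 arrays, with each gene set to its scrambled mean, as a description. Among the 4 members that rose with both hairpins, Lum and Dcn were nearest (0.33 log2 units) and Lum and Fmod farthest apart (0.79). Gene models without a proper name were left out of the ranking. Of the other genes tested, those nearest to Lum were the collagen gene Col1a1 (0.14), Cpe (0.20), Sertad4 (0.20), Bicc1 (0.21) and the growth factor gene Tgfb2 (0.21). Those nearest to Fmod were Ang3 (0.28), Stmn1 (0.34), Il17re (0.35), Mxra7 (0.40) and Arsj (0.44). No other member was among the 5 nearest of either.

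By gene order in RefSeq, the members lie on chromosomes 1, 10, 13, 4 and X, and 8 sit in runs. On chromosome 10, Dcn and Lum stand side by side and both rose. The next genes in the run, Kera and Epyc, which encodes another family protein, were under the filter. Of the flanking genes, Btg1 differed by -0.20 with hairpin 1 (adjusted p = 0.085) and rose by 0.24 with hairpin 2 (adjusted p = 0.0381), and Atp2b1, a calcium pump gene, fell by 0.32 and rose by 0.42 (adjusted p = 0.0111 and 0.00133).

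On chromosome 13 the order was Ecm2, Aspn, Omd, Ogn and Nol8. Ecm2, a related matrix gene, was under the filter, Aspn rose with both hairpins, Omd went both ways and Ogn fell with hairpin 2. Nol8, a nucleolar protein gene, differed by -0.97 and -1.02 log2 units (adjusted p = 1.74e-05 and 6.27e-06). Iars, a tRNA synthetase gene beyond it, rose by 0.31 with hairpin 1 and fell by 0.64 with hairpin 2 (adjusted p = 0.00415 and 4.54e-06). On chromosome 1, Prelp and Fmod are adjacent, and on the probe sets used Prelp fell and Fmod rose with both hairpins. Atp2b4, a calcium pump gene on the other side of Optc from Prelp, rose by 0.47 and 0.80, and Btg2, next to Fmod, rose by 0.32 with hairpin 1 (its hairpin 2 value was 0.12, adjusted p = 0.373). Chil1 rose with hairpin 2 (0.28) and Chit1 passed with neither.

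Among the other neighbours, Eea1 on chromosome 10 rose with hairpin 2 (0.36). On chromosome 13 Ippk fell with both hairpins (-0.29 and -0.27) and Cenpp rose with hairpin 1 (0.38). Around Podn on chromosome 4, Echdc2 rose by 0.91 with each hairpin, Cpt2, which encodes an enzyme of fatty acid import into mitochondria, by 0.43 and 0.25, and Scp2 by 0.21 and 0.25, while Czib and Slc1a7 did not pass. Around Bgn on the X chromosome, Zfp92, Haus7, Atp2b3 and Dusp9 did not pass with either hairpin. Lax1, Optc, Ccer1, Zyg11a, Trex2 and Pnck were under the filter, and Gm46240 and Gm272 had no probe set that names them alone. Of the 30 flanking genes that are not members, 20 were tested: 7 were higher and 3 lower with hairpin 1, against 8 higher and 3 lower with hairpin 2. Over all genes tested, 23.7% were higher and 9.23% lower with hairpin 1, and 21.5% and 13.3% with hairpin 2.

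**Figure D4:**
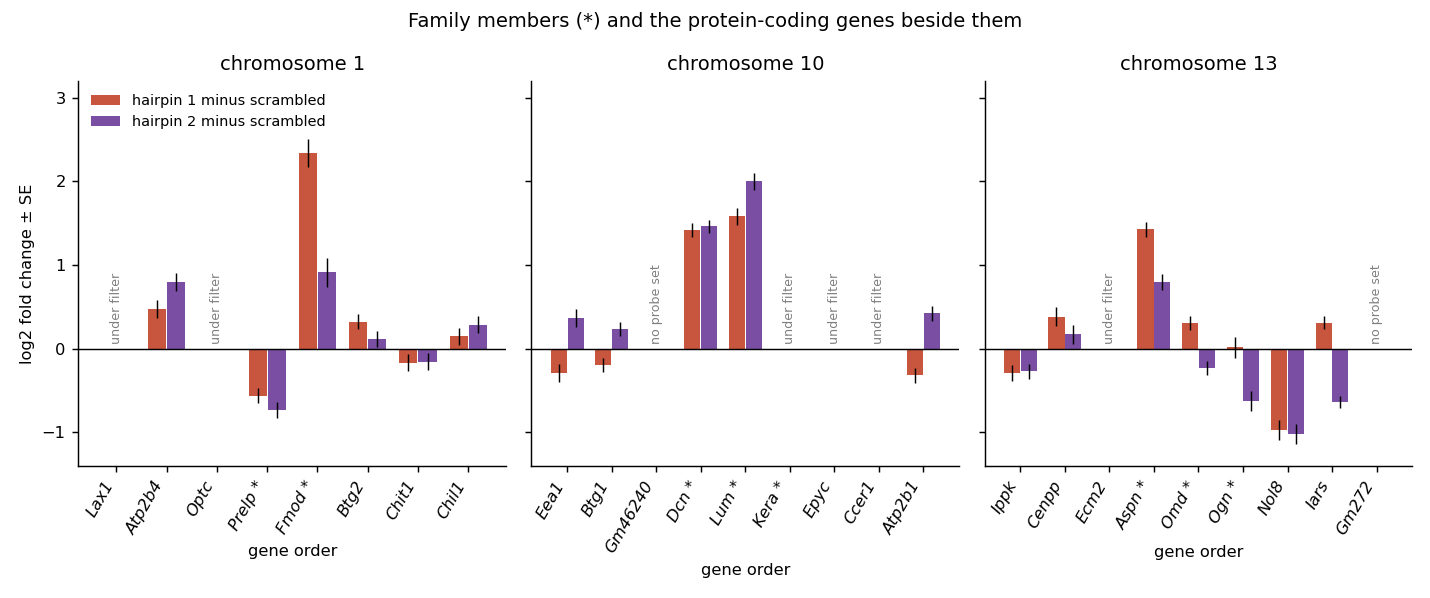
Log2 fold change ± SE (y axis) of members (starred) and the protein-coding genes beside them in gene order on chromosomes 1, 10 and 13, with hairpin 1 left and hairpin 2 right in each pair of bars. Genes under the signal filter or without a probe set have no bar; Dcn and Lum rise together while Aspn, Omd and Ogn do not share a direction with hairpin 2.

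Other genes of the same biology were set beside the members. Of 8 further family genes, 6 were on the array and 2 were tested, Chadl and Nyx, and neither passed with hairpin 1 (0.13 and 0.0048 log2 units, adjusted p = 0.378 and 0.978) or hairpin 2 (0.075 and 0.085, adjusted p = 0.658 and 0.578). Epyc, Optc, Chad and Ecm2 were under the filter. Chst14, Dsel, Tnxb, Cspg4, Gpc4, Tgfbr3 and Sox9, which have values below, and the cell type markers named were chosen for the text after their values were seen. Over all genes tested, 23.7% were higher and 9.23% lower with hairpin 1, and 21.5% and 13.3% with hairpin 2.

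Of 17 genes tested that build the sugar chains of decorin and biglycan, 8 were higher and 2 lower with hairpin 1, against 8 higher and 0 lower with hairpin 2 (medians 0.18 and 0.29). Csgalnact1, which starts chondroitin chains, rose by 1.01 and 0.43 log2 units (adjusted p = 2.17e-06 and 0.00339), and Chpf2, a chain polymerizing factor gene, by 0.70 and 0.66. Chst11, a chondroitin sulfotransferase gene, rose by 0.40 and 0.73. Dse, an epimerase gene that turns chondroitin into dermatan sulfate, fell by 0.85 with hairpin 1 (adjusted p = 0.000141), and its hairpin 2 value was -0.33 (adjusted p = 0.0687). Chst14, a dermatan sulfotransferase gene, also fell with hairpin 1 (-0.41). The related epimerase gene Dsel went the other way and rose by 0.42 with hairpin 1 (adjusted p = 0.0029). Its hairpin 2 value was -0.044 (adjusted p = 0.783).

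Keratan sulfate synthesis, used by lumican, fibromodulin and keratocan, had 4 of 6 genes higher and 0 lower with hairpin 1, and 3 higher and 0 lower with hairpin 2 (medians 0.28 and 0.19). The galactosyltransferase gene B4galt4 rose by 0.59 with hairpin 1 (adjusted p = 0.000398), while its hairpin 2 value of -0.15 missed the threshold (adjusted p = 0.299). The keratan sulfotransferase gene Chst1 rose by 0.38 and 0.47, and B4galt1 by 0.32 and 0.27. Chst2 rose by 0.25 with hairpin 1, and its hairpin 2 value was 0.11 (adjusted p = 0.36).

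The fibrillar collagens and their partners, to which these proteoglycans bind, had 13 of 17 genes higher and 0 lower with hairpin 1. With hairpin 2, 12 were higher and 1 lower, Tnxb, the tenascin X gene (-0.52); the medians were 0.32 and 0.39. Dpt, whose product dermatopontin binds decorin, read 12.28 ± 0.22 with hairpin 1, 12.23 ± 0.03 with hairpin 2 and 9.93 ± 0.11 with the scrambled hairpin (SD, n = 3 each). It rose by 2.34 and 2.29 log2 units (limma adjusted p = 7.23e-11 and 1.57e-11). Col5a1, a chain of the collagen that starts thin fibrils, rose by 1.36 and 1.38, Col1a1 by 1.69 and 1.98, and Col6a3 by 0.32 and 0.63.

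Other proteoglycan core protein genes went both ways: 16 were tested, with 8 higher and 2 lower with hairpin 1, against 6 higher and 2 lower with hairpin 2 (medians 0.21 and 0.11). Vcan, the large hyaluronan-binding proteoglycan versican, rose by 0.52 with hairpin 1 and 2.35 with hairpin 2, and differed between the hairpins by 1.84 log2 units (adjusted p = 1.93e-09). Gpc6 and Sdc4, cell surface heparan sulfate proteoglycan genes, rose by 0.62 and 0.50 with hairpin 1 and by 1.05 and 0.86 with hairpin 2. Agrn, the agrin gene, fell by 0.89 and 1.27. Cspg4 fell with hairpin 1 (-0.26), and Gpc4 rose with hairpin 1 (0.26) and fell with hairpin 2 (-0.36).

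Among TGF-beta ligands, receptors and latent binding proteins, 6 of 15 were higher and 1 lower, Tgfbr3 (-0.26), with hairpin 1, against 9 higher and 0 lower with hairpin 2 (medians 0.13 and 0.22). Tgfb2 rose by 1.27 and 1.91 log2 units (adjusted p = 4.03e-08 and 1.26e-10) and Tgfb3 by 1.09 and 1.64. The latent binding protein genes Ltbp1 and Ltbp2 rose by 0.37 and 0.55 with hairpin 1, and by 1.17 and 0.59 with hairpin 2.

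Proteases that cut these proteoglycans had 6 of 8 genes higher and 1 lower with hairpin 1, and 7 higher and 0 lower with hairpin 2 (medians 0.63 and 0.97). Bmp1, the procollagen C-proteinase gene, whose product also trims probiglycan, rose by 1.03 and 1.29, Adamts1 by 0.95 and 1.07, and Mmp14 by 0.47 and 1.15. Mmp2, a gelatinase gene, fell by 1.17 with hairpin 1 and rose by 1.27 with hairpin 2 (adjusted p = 3.22e-07 and 5.82e-08).

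Receptors reported for these proteins gave 2 higher and 1 lower of 12 with each hairpin (medians 0.059 and -0.051). Tlr2, a receptor for biglycan, fell by 1.11 and 1.00 log2 units (adjusted p = 1.06e-06 and 1.94e-06). Igf1r, which decorin binds, rose by 0.32 and 0.91. Itgb1 rose by 0.41 with hairpin 1, and Lrp1 by 0.63 with hairpin 2. Of 9 collagen receptor and matrix regulator genes, 2 were higher and 3 lower with hairpin 1, against 2 higher and 1 lower with hairpin 2 (medians -0.093 and -0.0056). The collagen receptor gene Ddr1 fell by 0.54 and 0.51 and Ddr2 rose by 0.34 and 0.72. Egr1 fell by 0.87 with hairpin 1, as did Sox9 (-0.29), and Itga1 rose by 0.68 with hairpin 2.

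**Figure D5:**
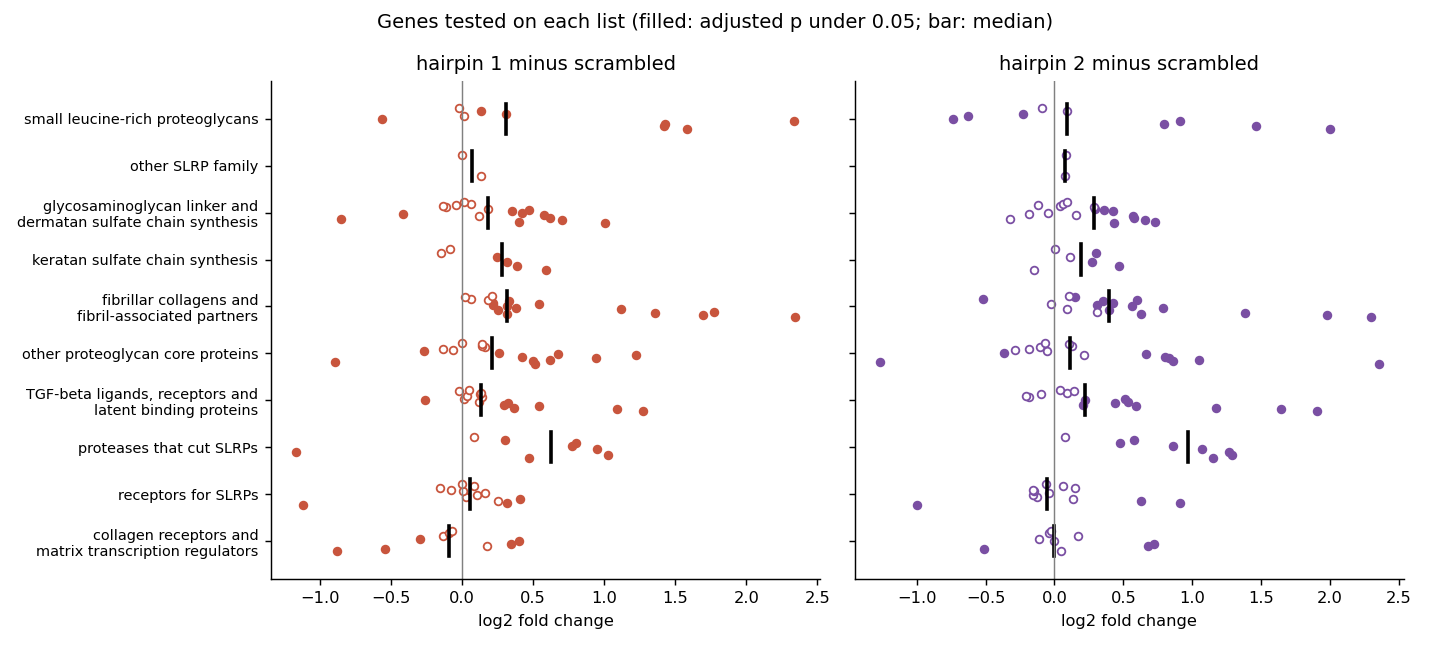
Log2 fold change (x axis) of each gene tested on the proteoglycan list and the 9 lists beside it, hairpin 1 minus scrambled left and hairpin 2 minus scrambled right; filled points passed an adjusted p of 0.05 and black bars are medians. The protease list has the highest median in both panels, 0.63 and 0.97.

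Markers of other cells were read beside these values. Of 8 preadipocyte and fibroblast markers named on the array, 7 were tested; 7 were higher with hairpin 1, against 6 higher and 1 lower, Dlk1, with hairpin 2. The summed level of this list, in log2 of the sum of unlogged values, was 15.16 to 15.23 with hairpin 1, 15.33 to 15.36 with hairpin 2, and 14.51 to 14.66 with the scrambled hairpin. Pdgfra rose by 0.89 and 1.18 log2 units and Thy1 by 0.92 and 1.96, while Cd34 was under the filter; the part of these cells in the rise of Lum, Dcn, Fmod and Aspn was not tested. Of 9 adipocyte markers tested, 0 passed limma's test with hairpin 1 (0 at an unadjusted p under 0.05), and with hairpin 2 Car3 rose (0.42) and Cidec fell (-0.25). The summed levels of the adipocyte list were 16.98 to 16.99, 17.00 to 17.01, and 16.99 to 17.01 in the same order of groups. Adipoq, Fabp4 and Lpl had the highest levels of that list with the scrambled hairpin (14.82, 14.89 and 14.71). The sum thus leans on genes near the top of the range.

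Some markers of tendon cells (Scx and Tnmd), bone and cartilage (Ibsp and Col2a1), endothelium (Pecam1 and Cdh5) and leukocytes (Ptprc and Adgre1) were under the filter. Other genes of these lists were above it: the tendon regulator gene Mkx averaged 8.03 with hairpin 1, 8.33 with hairpin 2 and 8.16 with the scrambled hairpin, and did not pass with either hairpin (adjusted p = 0.414 and 0.282). The endothelial receptor gene Kdr averaged 6.72, 6.63 and 6.79 in the same groups and did not pass (adjusted p = 0.624 and 0.273). The bone regulator gene Sp7 averaged 6.93 with the scrambled hairpin, and its values with hairpins 1 and 2 were 0.066 and 0.070 log2 units higher, which did not pass (adjusted p = 0.578 and 0.568). Of 5 bone and cartilage markers tested, 0 rose and 1 fell with hairpin 1, Sox9, and 1 rose and 0 fell with hairpin 2, Alpl (0.28). Sox9, Acan and Col10a1 of that list averaged 7.76, 6.11 and 5.81 with the scrambled hairpin, all above the filter. Acan (adjusted p = 0.718 and 0.0703) and Col10a1 (adjusted p = 0.58 and 0.407) passed with neither hairpin. In smooth muscle, Acta2 and Des rose with both hairpins (0.97 and 0.67 with hairpin 1, 0.27 and 0.62 with hairpin 2), while Myh11 and Tagln fell with hairpin 2 (-0.50 and -0.43). Of 4 macrophage markers tested, Laptm5 fell with both hairpins (-1.22 and -1.82) and Cd68 rose with hairpin 2 (1.18). Cd14 (adjusted p = 0.949 and 0.256) and Csf1r (adjusted p = 0.605 and 0.21) passed with neither hairpin. The summed macrophage list was 10.40 to 10.56 with hairpin 1, 10.09 to 10.49 with hairpin 2, and 10.73 to 11.36 with the scrambled hairpin. Laptm5 had the highest level of the list with the scrambled hairpin (10.48 ± 0.59, SD), so the sum leans on it.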

How the data were processed

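Values are log2 levels, 1 per probe set and array, computed by the authors with RMA, per the submitters' processing notes; its version is not given in the sources used here. Per the labels' protocols, a NuGEN kit amplified the RNA, which was then biotin-labelled. Of 45101 probe sets, 64 controls were left out; 34945 name 1 symbol, 932 several and 9160 none. For each gene the probe set with the highest mean was used, and genes with a mean under the 30th percentile were left out. All 9 arrays were fitted by group in limma 3.58.1 (R 4.3.3; eBayes with trend), with Benjamini-Hochberg adjustment over all genes tested or, where stated, over all probe sets; p-values are two-sided. The fit was tested on simulated data.

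The members and lists were chosen with earlier results of these data known. Every member is named; from each pathway list the 4 genes with the smallest p with either hairpin are named, as are the neighbours and the 5 profiles nearest to Lum and to Fmod. Repeat numbers did not pair the arrays (deviations of same-numbered arrays correlated at -0.293 to 0.25). Alternatives covered filters, probe set choice, scaling, weights, the block and leaving out each array. Protein sequences were not used here, so the planned description of them was not made.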

Additional observations from a re-analysis of the deposited data

Results flagged for a closer look

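Ogn and Omd stood out because the hairpins gave fitted changes of opposite sign and a called difference between them. For Ogn, hairpin 2 minus hairpin 1 was -0.65 log2 units (SE 0.123, limma adjusted p = 0.000941), with 0.017 for hairpin 1, which did not pass, and -0.63 for hairpin 2. The hairpin 1 value of Ogn was negative in 6 of 18 alternatives, so its opposite sign is not settled. For Omd, the difference was -0.54 (SE 0.0826, adjusted p = 0.00014), with 0.31 for hairpin 1 and -0.23 for hairpin 2. All 3 hairpin 2 arrays lay below all 3 hairpin 1 arrays for both genes. The share of all genes tested that separated in this way is not given here.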

How the results depend on the processing

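Each comparison was repeated under 18 alternatives. With hairpin 1, 6 to 7 members passed (6 to 7 when 1 array was left out in turn), with hairpin 2, 6 to 8 (6 to 8), and between the hairpins 4 to 7 (5 to 6). Of 483 alternative values of single members, 453 kept their direction and side of the threshold, 9 lost a call, 10 gained one and 11 changed sign. The 1 called value that changed sign was Prelp with hairpin 1 on the mean of its probe sets (0.017); the probe sets themselves gave -0.56 and 0.59. The other 10 passed neither before nor after. Ogn with hairpin 1 was -0.045 with quantile normalization, -0.022 with equal array medians, -0.014 with array quality weights, and -0.060 to 0.15 when 1 array was left out. Podn with hairpin 1 was 0.041 with array quality weights and -0.058 to 0.0019 when 1 array was left out, a range of -0.16 to 0.0042 with hairpin 2 and -0.14 to 0.026 between the hairpins. The cause was not tested. Lum, Dcn, Fmod and Aspn kept their calls with both hairpins in all 18. The calls lost were of Bgn with hairpin 1 (adjusted p = 0.0923 with equal array medians, 0.153 without the variance trend, 0.0618 without 1 array) and of Omd. Bgn with hairpin 2 gained a call in 5 alternatives, and Omd was not tested with the filter at the 50th percentile. With the replicate block, 7 members passed with hairpin 1, 6 with hairpin 2 and 5 between the hairpins, and Omd with hairpin 2 was the call lost (adjusted p = 0.0592). The repeat numbers share only a number: 3 of 9 same-numbered pairs correlated over 0.1. With array quality weights, 7460 of all genes tested passed with hairpin 1, against 4199. Repeat 3 of hairpin 1 was weighted 5.35 and its repeats 1 and 2 only 0.256 and 0.436. Under this setting hairpin 1 thus rests mostly on repeat 3. With 3 arrays a group, differences as small as those of Bgn rest on single arrays. Kera and Omd lie near the floor, and Bgn lies near the top of the range.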
